A study of Bos taurus with 8 samples.

Results

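The genes of DNA replication were read from the lungs of newborn Holstein cattle on 1-colour arrays. The list names 50 genes. A probe of the array carried the name of 41 of them, and for all 41 a probe passed the background requirement, being well above background on 4 or more arrays of 8, as did 9867 named genes in all. Each gene is represented by its brightest such probe. No probe here carried the name of MCM2, MCM10, CDT1, RFC1, GINS2, POLA1, POLE, RRM2 or E2F1, and these 9 genes were not analysed here.

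Lung RNA came from 4 cloned calves labelled with respiratory failure, called clones 1 to 4, and from 4 healthy calves that were naturally conceived, called normal animals 1 to 4. All 8 animals were Holstein and 4 days old, and each animal gave 1 array. The labels used here give neither sex, donor cell line nor treatment, so whether the 4 clones share a genome is not known. The comparison asks how the lungs of cloned newborns with respiratory failure differed from healthy lungs of the same age, so cloning and disease cannot be told apart.

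A cell copies its genome in S phase. The origin recognition complex marks start sites, CDC6 and CDT1 load the ring-shaped MCM2-7 helicase onto them, and the kinase CDC7 together with CDC45 and the GINS complex turns the ring into a moving helicase. Polymerases, the sliding clamp PCNA, its loader RFC, the ligase LIG1 and the single-strand binding protein RPA then copy both strands, while ribonucleotide reductase and thymidylate synthase supply the building blocks. Many of these genes are switched on together by E2F factors as a cell passes from G1 to S phase, so in a tissue such as the growing lung their mRNA is used as a sign of dividing cells.

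Levels are log2 processed signal minus the array's own 75th percentile, and a difference of 1 is a doubling. A level of 0 is the 75th percentile of all gene probes on that array, taken before the background requirement and without outlier spots. Tests are limma's, with Benjamini-Hochberg adjustment over 35636 kept probes and a threshold of 0.05. The 4 clone arrays lay on 1 slide and the 4 normal arrays on another, so slide and group cannot be told apart. Clones 1 and 3 stood apart from the other arrays: limma's array weights were 0.116 and 0.0979 for them, against 1.66 to 4.13 for the other 6 arrays. The share of probes well above background was 78.8% to 80.6% in clones and 80.4% to 83.5% in normal animals. The lung label was checked against alveolar type II markers: 6 of 7 were measured, and their mean level was 4.55 to 5.80 in clones and 4.94 to 5.06 in normal animals.

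No replication gene passed the test of clones against normal animals. Among all probes, 0.177% passed (63 of 35636), and 0 of the 94 kept probes of the replication genes did. The lowest adjusted p among the 41 genes was 0.183 in limma and the highest 0.997. At an unadjusted p under 0.05 there were 9 genes, all 9 higher in clones: ORC1, CDC6, POLD1, POLD3, RFC2, LIG1, RPA1, CCNE1 and CCNE2. Over all named genes, 6.37% had such a p and were higher in clones. CDC6 is weak evidence within the 9, because it met the background requirement through its clone levels. Most of its normal levels lay near background, and its direction was not settled, as described with the licensing genes. The difference was positive for 34 of the 41 genes and negative for 7, with a median of 0.32 on the log2 scale, against -0.02 over all genes. With the mean of each gene's probes in place of the brightest, 28 of the 41 were positive, with a median of 0.30. In whole lung, more cells of a type and more RNA per cell cannot be told apart, nor can fewer and less.

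**Figure D1:**
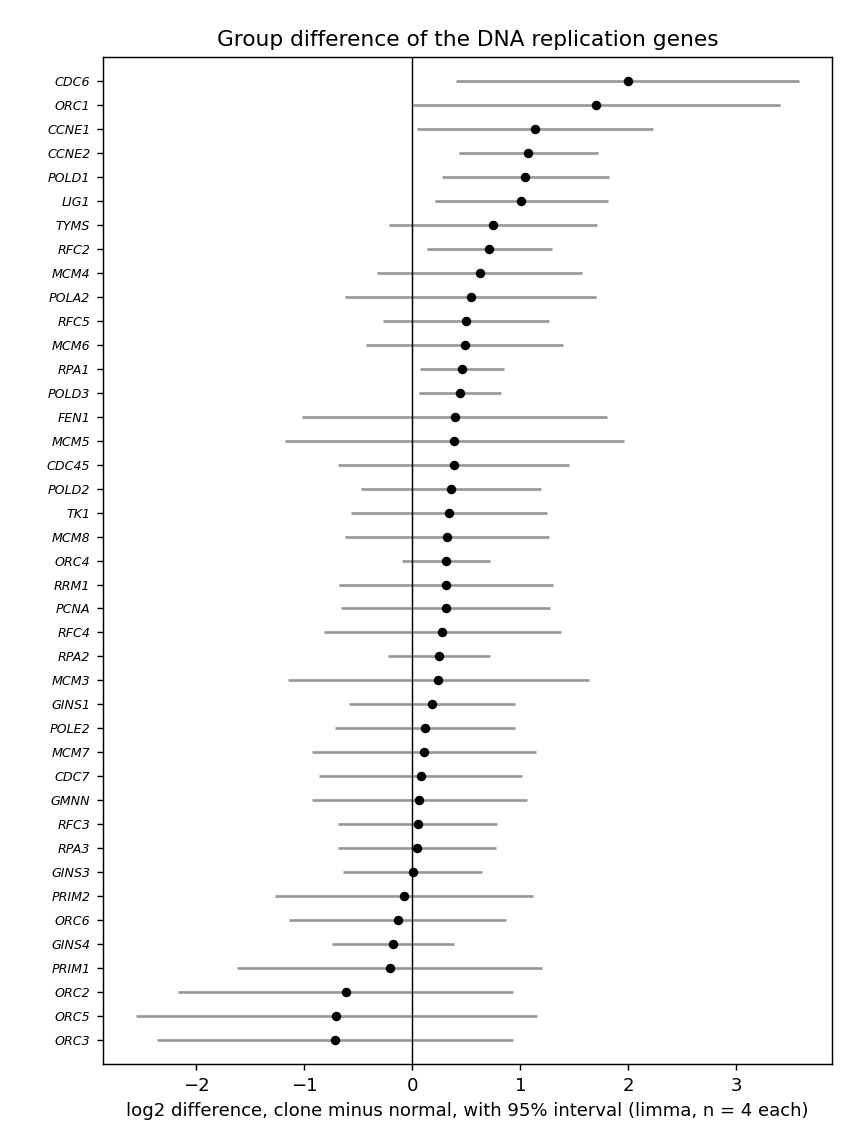
Difference in log2 level, clone minus normal, for the 41 replication genes, ordered by that difference, with the 95% interval of the limma fit. Points right of 0 are higher in clones; 34 of 41 lie there.

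The spread between clones was far wider than that between normal animals. The median SD of the 41 genes was 0.91 over the 4 clones and 0.16 over the 4 normal animals, while over all genes it was 0.53 and 0.16. The SD was larger among clones for 40 of 41 genes (97.6%), and for 91.1% of all genes. The spread followed particular animals. Clone 1 was above clone 3 for 38 of 41 genes (92.7%), against 50.7% of all genes, with a median gap of 2.09 on the log2 scale against 0.02 over all genes. Clone 1 had the highest level of all 8 animals for 31 genes (75.6%, all genes 26.4%) and clone 3 the lowest for 28 (68.3%, all genes 29.0%).

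Set against the mean of the normal animals, the median replication gene stood at 1.16 in clone 1, 0.23 in clone 2, -0.64 in clone 3 and 0.41 in clone 4. The same median over all genes was 0.02, -0.03, -0.0082 and -0.0016 in clones 1 to 4. In clone 1, 37 of 41 genes were above that mean, in clone 2 it was 29, in clone 3 it was 11 and in clone 4 it was 38. Each normal animal was set against the other normal animals, and gave -0.17, -0.03, 0.26 and -0.04 for normal animals 1 to 4. Normal animal 3 was the highest normal animal for 30 genes (73.2%), against 25.0% of all genes.

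**Figure D2:**
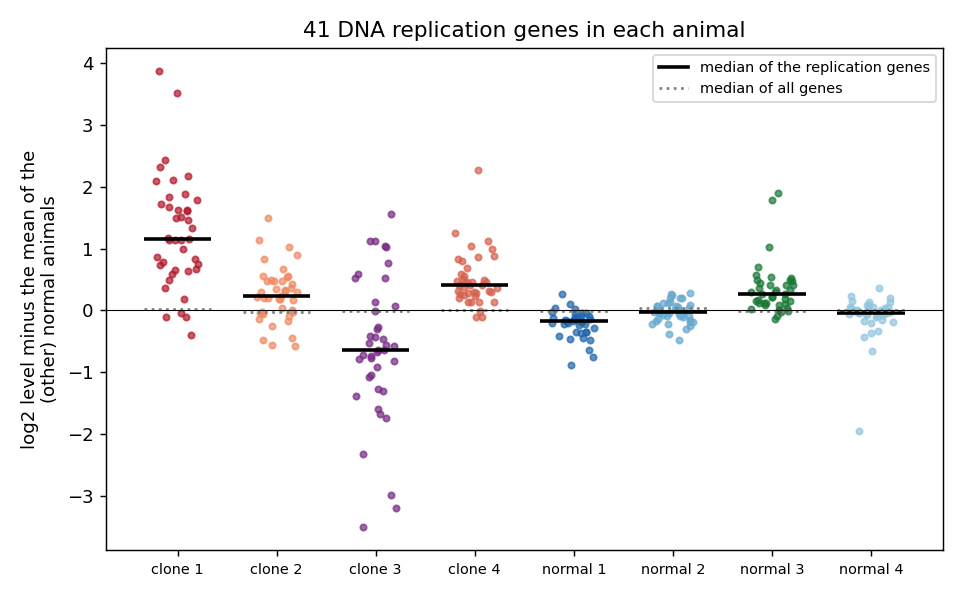
Difference of each replication gene from the mean of the normal animals (for a normal animal, from the mean of the other 3), by animal, clones left of normal animals. The dotted line marks the median of all genes and the solid line that of the replication genes, which runs from -0.64 in clone 3 to 1.16 in clone 1 and from -0.17 to 0.26 among the normal animals.

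The result was computed again without clones 1 and 3, a setting chosen after the data were seen. With clones 2 and 4 against the 4 normal animals, 10 of the 41 genes passed the test, all higher in clones: ORC2, ORC3, ORC4, GMNN, RFC5, POLD1, POLD2, LIG1, RPA2 and TYMS. Over all probes 15.9% passed and were higher in clones. The median difference of the 41 genes was then 0.31, and 34 were positive. When all 8 arrays were kept and weighted by limma, 8 genes passed, all higher (ORC4, RFC5, POLD1, POLD2, LIG1, RPA2, TYMS and CCNE2), against 15.7% of probes. In both counts RPA2 was read from its brightest probe, and most of its other probes gave negative differences over all 4 clones. In the count without clones 1 and 3, ORC2 and ORC3 also rested on their brightest probes. On 1 other ORC2 probe, clone 2 (-4.59) lay below and clone 4 (-4.42) inside the normal range, and on another both lay above it. On the other ORC3 probe, clones 2 and 4 (-3.59 and -3.72) lay inside the normal range. Leaving out clone 1 alone put 17 of 41 genes on the positive side with a median of -0.08, and leaving out clone 3 alone put 40 there with a median of 0.58.

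**Figure D3:**
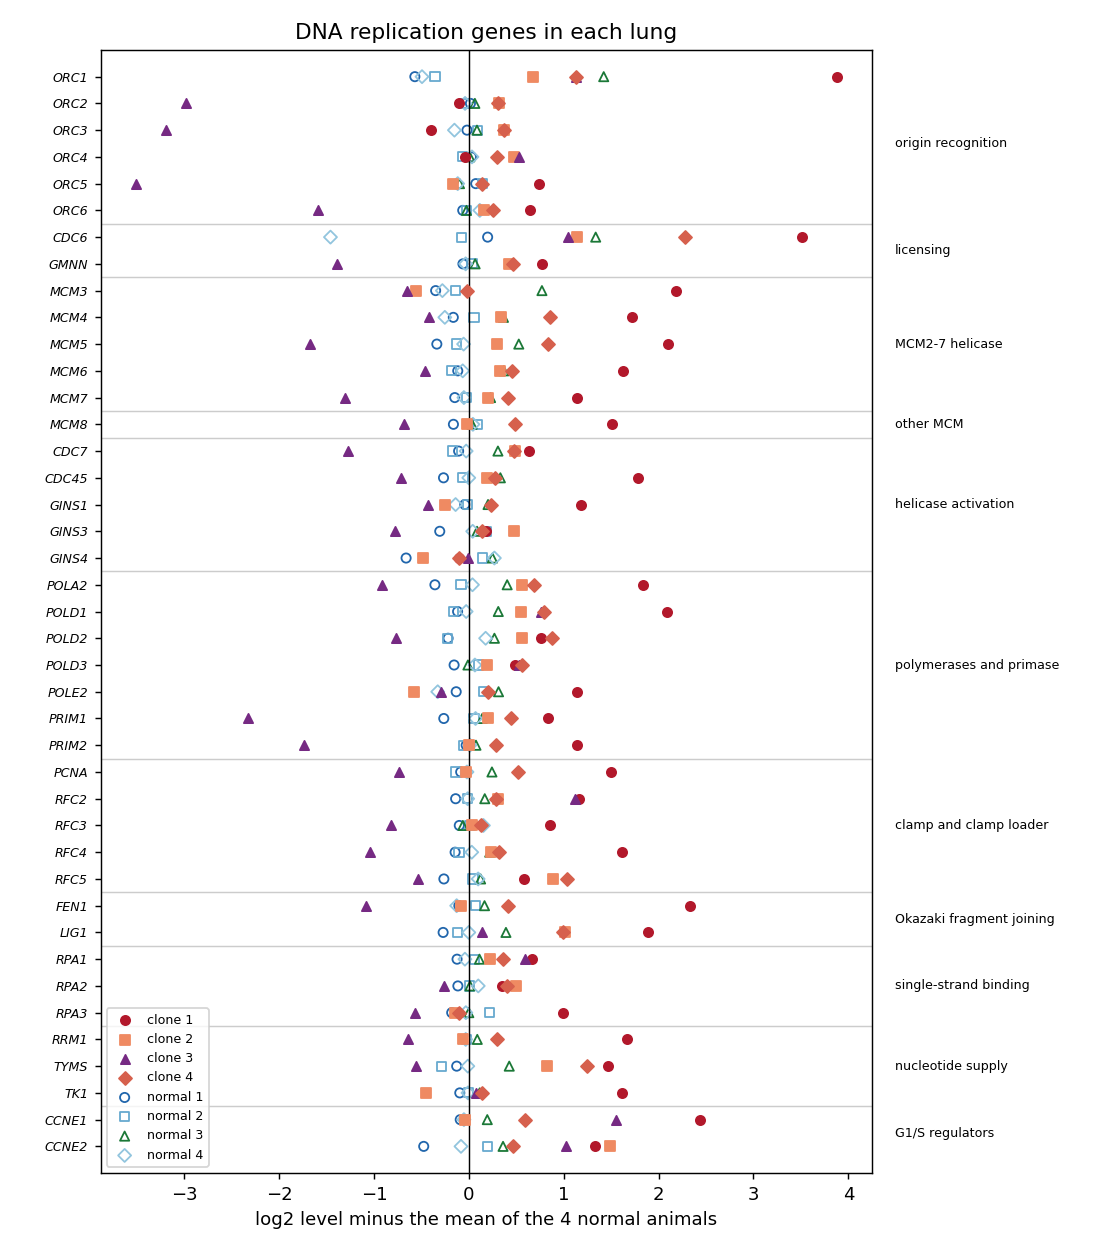
Level of every replication gene in each animal as a difference from the mean of the normal animals (log2), genes in rows by role, with filled marks for clones and open marks for normal animals. Clone 1 is the rightmost mark in 31 of 41 rows and clone 3 the leftmost in 28; normal animal 3 is the rightmost open mark in 30.

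Origin recognition was the only role with more negative than positive differences. Its 6 subunits, which together bind the start sites, gave 2 positive and 4 negative differences with a median of -0.37, and 0 of 6 passed the test. Relative to the normal mean, the median subunit was at 0.30, 0.34, -2.29 and 0.31 in clones 1 to 4, so clone 3 stood apart from the other clones. ORC1, the subunit whose level follows the cell cycle in human cells, measured -2.04, -5.24, -4.79 and -4.79 in clones 1 to 4, against -6.49, -6.27, -4.49 and -6.41 in normal animals 1 to 4. Clone 1 was highest, and normal animal 3 lay above the other 3 clones, so the groups overlapped. The difference was 1.70 (95% interval 0.01 to 3.40, n = 4 each), with an adjusted p of 0.378 in limma. The ORC1 probe cleared the background in 4 of 4 clones and 3 of 4 normal animals.

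Of the other origin subunits, ORC2, ORC3, ORC5 and ORC6 were lowest in clone 3. They are given animal by animal because their values were seen to stand apart there. ORC2 measured -1.87, -1.45, -4.76 and -1.46 in clones 1 to 4, against -1.76, -1.81, -1.71 and -1.81 in normal animals. ORC3 measured -0.66, 0.11, -3.46 and 0.11 in clones, against -0.28, -0.17, -0.18 and -0.41 in normal animals. ORC5 measured -1.18, -2.09, -5.43 and -1.79 in clones, against -1.85, -1.78, -2.02 and -2.04 in normal animals. In each of these 3 genes clone 3 was far below the other 7 animals, which lay close together, and all 3 probes of ORC2, both probes of ORC3 and all 3 of ORC5 put clone 3 lowest. ORC6 had -1.95 in clone 3 against -0.42 to -0.24 in normal animals, and its difference between the groups was -0.13. ORC4 differed from the rest: clone 3 had its highest level, 0.57, and the difference was 0.32 (adjusted p = 0.506 in limma). With clone 3 left out, the differences of ORC2, ORC3, ORC5 and ORC6 on their brightest probes turned to 0.18, 0.11, 0.24 and 0.35. Other probes of these genes were not all alike in this. On the other ORC3 probe, clone 1 lay below the normal range at -4.38, and clones 2 and 4 lay inside it. On 1 further probe of ORC5 and 1 of ORC6, clone 1 lay above the normal range and clones 2 and 4 below it.

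Licensing is represented by CDC6, which loads the MCM ring, and GMNN (geminin), which blocks CDT1 so that an origin fires once per cycle. CDC6 measured -3.61, -5.99, -6.08 and -4.85 in clones 1 to 4, against -6.93, -7.20, -5.79 and -8.58 in normal animals. Clones 1 and 4 lay above all normal animals, and normal animal 3 lay above clones 2 and 3. This probe cleared the background in 4 of 4 clones but 1 of 4 normal animals, so most of its normal levels are not well above background and it was kept through the clones. On these values the difference was 1.99 (0.40 to 3.58; adjusted p = 0.272 in limma), and with normexp background correction and the 75th percentile it was -0.069 relative to the median of all probes, so the direction for CDC6 was not settled. For GMNN, clone 3 had -0.26, below every normal animal (1.06 to 1.19), while the other 3 clones had 1.55 to 1.90, above every normal animal. Its difference over all 4 clones was 0.07. The other GMNN probe gave -0.10, with clones 1 and 2 inside the normal range of -0.47 to 0.52, clone 4 above it and clone 3 below it.

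The MCM2-7 ring, the motor that unwinds the double helix, was measured through 5 of its 6 subunits. All 5 differences were positive, from 0.11 to 0.62, and 0 of 5 passed the test. Beyond the brightest probes, 1 probe of MCM4 gave -0.13 and 1 of MCM7 gave -0.22, while the remaining probes of the ring were positive. All 5 subunits had the same order of clones, 1, 4, 2 and 3 from high to low. Relative to the normal mean their median was 1.72, 0.29, -0.65 and 0.46 in clones 1 to 4. In normal animal 3 it was 0.49, and in the other normal animals -0.22 to -0.09. MCM3 measured 0.85, -1.88, -1.98 and -1.34 in clones, against -1.68, -1.47, -0.56 and -1.61 in normal animals. Only clone 1 lay above normal animal 3, and the difference was 0.24 (-1.15 to 1.63). MCM4 measured 3.28, 1.90, 1.14 and 2.42 in clones, against 1.40, 1.62, 1.93 and 1.31 in normal animals. Here clones 1 and 4 lay above all normal animals and clone 3 below all of them, and the difference was 0.62 (-0.33 to 1.58), with an adjusted p of 0.578 in limma.

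MCM5 had the widest range of the ring's subunits. It measured 3.93, 2.12, 0.15 and 2.66 in clones, against 1.49, 1.69, 2.35 and 1.77 in normal animals. Clones 1 and 4 were above and clone 3 below every normal animal, with clone 2 inside the normal range, and the difference was 0.39 (-1.18 to 1.96). On the dimmest MCM5 probe (0.08), clone 4 lay inside the normal range. MCM6 measured 0.61, -0.69, -1.48 and -0.56 in clones, against -1.13, -1.20, -0.65 and -1.08 in normal animals, a difference of 0.49 (-0.43 to 1.40). MCM7 measured 3.39, 2.45, 0.95 and 2.67 in clones, against 2.11, 2.23, 2.49 and 2.20 in normal animals. Its difference was 0.11 (-0.93 to 1.15), with clones 1 and 4 again above and clone 3 below the whole normal range. The other MCM7 probe gave -0.22, with clone 1 above the normal range, clones 2 and 4 inside it and clone 3 below it. The related protein MCM8, which acts in recombination repair and is no part of the ring, measured -2.69, -4.23, -4.88 and -3.72 in clones, against -4.37, -4.12, -4.17 and -4.16 in normal animals. It gave 0.32 (-0.62 to 1.27) and had the same order of clones.

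**Figure D4:**
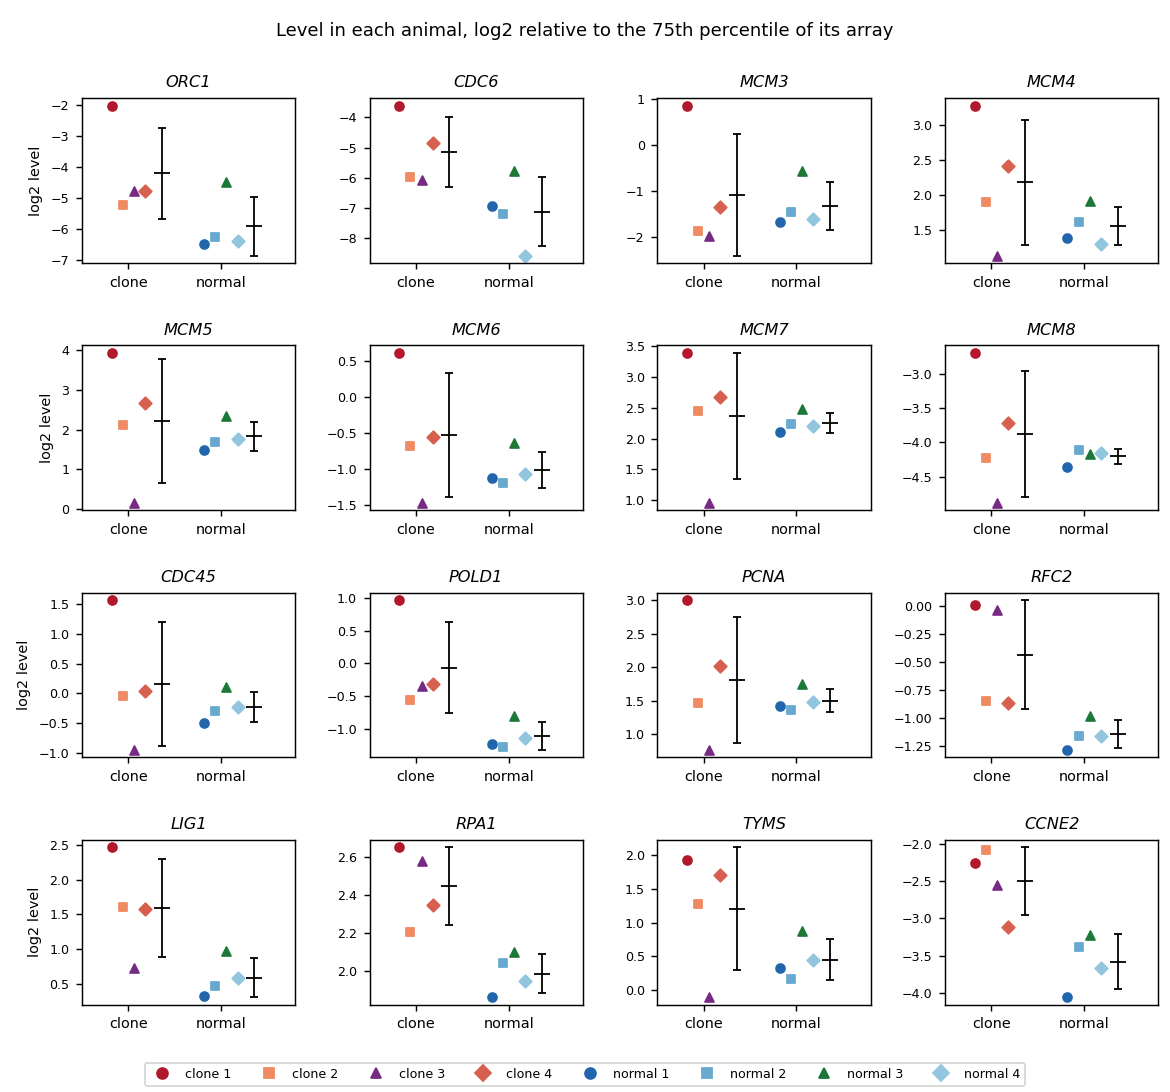
Level (log2 signal minus the array's 75th percentile) in each animal, clones left of normal animals in each panel. The panels show ORC1, CDC6, MCM3 to MCM8, CDC45, POLD1, PCNA, RFC2, LIG1, RPA1, TYMS and CCNE2. Each point is 1 animal, and the horizontal bar with whiskers is the group mean with its SD; normal points lie close together in most panels while the clones spread around them. Levels of different genes come from different probes and are not to be set against each other.

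Helicase activation gave 4 positive differences and 1 negative among 5 measured genes, with a median of 0.08. CDC45, which joins the ring at each fork, measured 1.56, -0.04, -0.94 and 0.05 in clones, against -0.49, -0.29, 0.11 and -0.23 in normal animals. Clone 1 lay above and clone 3 below every normal animal, and the difference was 0.38 (-0.68 to 1.45; adjusted p = 0.779 in limma). The other CDC45 probe gave 0.73, with clone 3 inside the normal range. CDC7, the kinase that triggers firing, gave 0.08. In clone 3 it measured -1.48, below the normal range of -0.37 to 0.10, and in the other 3 clones 0.27 to 0.43, above it. The other CDC7 probe gave -0.11, with clone 1 above the normal range, clones 2 and 4 inside it and clone 3 below it. Of the GINS complex, which joins the ring together with CDC45, GINS1 gave 0.18, GINS3 0.0037 and GINS4 -0.18. The other GINS1 probes gave -0.12 and -0.16.

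Of 7 measured polymerase and primase genes, 5 had positive and 2 negative differences, and 0 passed the test. POLD1, the catalytic subunit of polymerase delta, measured 0.97, -0.57, -0.35 and -0.32 in clones, against -1.23, -1.28, -0.80 and -1.14 in normal animals. Every clone lay above every normal animal, a 2.07-fold difference or 1.05 on the log2 scale (0.28 to 1.82), with an adjusted p of 0.242 in limma. The other POLD1 probe gave 0.97, again with no overlap. POLD3, an accessory subunit of the same enzyme, also had every clone (-0.80 to -0.43) above every normal animal (-1.15 to -0.89), with a difference of 0.44 (0.07 to 0.82). Its other 2 probes did not separate the groups and gave 0.48 and 0.09; on the dimmer of them, clones 2 and 4 lay below every normal animal. POLD2 gave 0.36, POLA2 of polymerase alpha 0.54 and POLE2 of polymerase epsilon 0.12. Primase, which lays the RNA starters, had negative differences in both subunits, -0.21 for PRIM1 and -0.08 for PRIM2. For both, clone 3 was lowest on all 3 probes of the gene: PRIM1 had -6.30 there against -4.23 to -3.83 in normal animals, and PRIM2 had -2.36 against -0.68 to -0.55. Without clone 3 both differences were positive, 0.50 and 0.48.

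All 5 genes of the clamp and its loader had positive differences on their brightest probes, from 0.05 to 0.71. PCNA, the ring that tethers polymerases to DNA, measured 3.00, 1.47, 0.77 and 2.02 in clones, against 1.42, 1.37, 1.75 and 1.48 in normal animals. The difference was 0.31 (-0.65 to 1.28), and clone 3 was the lowest animal on this probe. The other 2 PCNA probes put clone 3 elsewhere: they read -0.70 and -0.53 there, above normal ranges of -1.86 to -1.41 and -1.73 to -1.22. RFC2, a loader subunit, measured 0.01, -0.85, -0.03 and -0.87 in clones, against -1.29, -1.16, -0.98 and -1.16 in normal animals. Every clone was above every normal animal, a 1.64-fold difference (log2 0.71, 0.14 to 1.29; adjusted p = 0.279 in limma). The other RFC2 probe gave a difference of 0.06: clone 1 lay above its normal range of -2.01 to -1.46, clones 2 and 4 inside it, and clone 3 below it at -2.90, so the separation rests on 1 of the 2 probes. RFC3 gave 0.05, RFC4 0.28 and RFC5 0.49. The other probes of RFC3 gave -0.22 and -0.14, while those of RFC5 were positive.

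LIG1, the ligase that seals Okazaki fragments on the lagging strand, measured 2.47, 1.60, 0.72 and 1.58 in clones, against 0.31, 0.47, 0.98 and 0.58 in normal animals. Only normal animal 3 lay above a clone, namely clone 3. The difference was 2.01-fold (log2 1.01, 0.21 to 1.81), with an adjusted p of 0.269 in limma. FEN1, which trims the flaps before ligation, ranged from -1.17 in clone 3 to 2.24 in clone 1, against -0.22 to 0.08 in normal animals, and its difference was 0.39. RPA1, the large subunit of the single-strand binding protein, measured 2.65, 2.21, 2.58 and 2.35 in clones, against 1.86, 2.04, 2.10 and 1.94 in normal animals. Every clone was above every normal animal, and in this gene clone 3 stood beside clone 1 instead of below the normal range. The difference was 0.46 (0.07 to 0.85; adjusted p = 0.299 in limma). Another RPA1 probe gave 0.41, also with no overlap, while the third gave 0.01, with clones 2 and 4 below every normal animal. Its partners RPA2 and RPA3 gave 0.25 and 0.04. RPA2 had 7 kept probes. Of those other than the brightest, 1 gave 0.28 and the rest gave -0.33 to -0.22.

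The nucleotide supply genes gave 3 positive differences among 3 measured. TYMS, thymidylate synthase, measured 1.92, 1.28, -0.10 and 1.70 in clones, against 0.32, 0.17, 0.88 and 0.44 in normal animals. Clones 1, 2 and 4 lay above and clone 3 below every normal animal, and the difference was 0.75 (-0.22 to 1.71; adjusted p = 0.507 in limma). RRM1, the large subunit of ribonucleotide reductase, had 4.00 in clone 1 and 1.69 in clone 3, against 2.30 to 2.42 in normal animals, with a difference of 0.31. TK1, the salvage kinase for thymidine, gave 0.34, with clone 1 at 3.29 above the normal range of 1.58 to 1.79 and clone 2 at 1.22 below it.

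The E-type cyclins, which activate CDK2 for entry into S phase, gave the lowest p of the list. CCNE2 measured -2.25, -2.09, -2.55 and -3.12 in clones, against -4.06, -3.38, -3.22 and -3.66 in normal animals. Every clone lay above every normal animal, a 2.11-fold difference (log2 1.08, 0.43 to 1.72), with an adjusted p of 0.183 in limma. The other CCNE2 probe gave 0.74, with clone 4 inside the normal range. CCNE1 gave 1.13 (0.04 to 2.22; adjusted p = 0.359 in limma), with clone 2 inside the normal range and clones 1, 3 and 4 above it. The median of both cyclins relative to the normal mean was 1.29 in clone 3, and no other role with at least 2 measured genes was above 0 in that clone.

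Across the list, every clone exceeded every normal animal for 5 of 41 genes, POLD1, POLD3, RFC2, RPA1 and CCNE2, and the reverse held for 0. These are the brightest probes; over all kept probes of the gene, the separation held for POLD1 and not for the other 4. Over all genes, 5.05% had every clone above every normal animal (498 of 9867), and 472 of 9867 had every clone below every normal animal. Of the 29 genes with several kept probes, 21 had the same sign on all of them and 8 did not. Over all 94 probes clone 1 was the highest clone on 76 and clone 3 the lowest on 72, with both on 59, so the ordering did not rest on the choice of the brightest probe. On the brightest probes both held for 24 of 41 genes (58.5%), against 18.1% of all genes. The direction between the groups did depend on the scaling. Centred on the spike-in controls, the median of all probes lay 0.68 lower than in the reported fit, 8 of 41 genes were positive, the median of the 41 was -0.36, and GINS4 passed as lower, while 28.2% of all probes passed as lower. The median of all probes was then -0.70. Either scaling subtracts a single value per array, which moves all genes alike. The gap between the median replication gene and the median of all probes therefore could not change, while the sign of the former turned.

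Other genes of the replication and division programme were counted in 5 lists, with 91 genes measured and 0 passing the test. The 17 measured genes of mitosis all had positive differences, with a median of 2.09, and 13 of them had an unadjusted p under 0.05, where 48.4% of all genes were positive and 6.37% were higher at that p. KIF11 is weak evidence within the 13, because its probe cleared the background in 3 of 4 clones and 2 of 4 normal animals. The other measured mitosis genes cleared it in every animal. Of the 17, 16 had clone 1 highest and clone 3 lowest among clones, against 18.1% of all genes. Medians of the mitosis list relative to the normal mean were 3.86, 1.65, 0.32 and 2.33 in clones 1 to 4, against 1.18 in normal animal 3. These medians ran in the same order of clones as those of the replication genes, with larger gaps, but in clone 3 the median was above the normal mean where that of the replication genes was below it. UBE2C, which hands ubiquitin to the anaphase-promoting complex, measured 1.74, -0.78, -1.63 and -0.21 in clones, against -2.99, -3.44, -1.58 and -3.63 in normal animals. PLK1, the mitosis gene with clone 2 lowest among clones, had every clone above every normal animal (difference 1.01).

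Genes of fork protection and the S phase checkpoint gave 12 positive and 3 negative differences (median 0.25), with medians of 0.52, 0.45, -0.65 and 0.59 in clones 1 to 4. Among them FANCI of the Fanconi pathway gave 1.09 and the checkpoint kinase CHEK1 0.99. Chromatin assembly and cohesion genes gave 11 positive and 3 negative (median 0.34), with medians of 0.61, 0.14, 0.03 and 0.32 in clones 1 to 4. The difference was 2.20 for UHRF1, which guides maintenance methylation to new DNA, and 1.56 for the cohesin acetyltransferase ESCO2. The wider nucleotide metabolism list was split, 8 positive and 13 negative with a median of -0.06, and held DUT, which removes dUTP, at 0.80 and GART of purine synthesis at -0.80. Only 1 of its genes had an unadjusted p under 0.05, against 6.58% of all genes lower in clones at that p. That gene was SLC29A1, lower in every clone than in every normal animal (difference -0.65).

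The G1/S network outside the replication list gave 16 positive and 8 negative differences, with a median of 0.27 and 6 genes higher and 3 lower at an unadjusted p under 0.05, against 6.37% of all genes higher and 6.58% lower. E2F3, an activating factor of replication genes, measured -4.26, -4.35, -2.85 and -4.16 in clones, against -5.15, -5.32, -5.51 and -5.29 in normal animals. Every clone lay above every normal animal, and clone 3 was highest (difference 1.41, adjusted p = 0.155 in limma). RBL2, a pocket protein that represses E2F targets, ranged from -1.25 to -0.61 in clones, against -0.36 to -0.16 in normal animals, so every clone was below every normal animal (difference -0.71, adjusted p = 0.183 in limma). The other pocket proteins were not lower in clones: RBL1 gave 0.83 and RB1 0.0038. CCND3, a D-type cyclin, was like RBL2 lower in every clone (difference -0.68), and the kinase inhibitors CDKN2C (0.58) and CDKN2D (1.48) were higher in every clone. The other measured inhibitors CDKN1A, CDKN1B, CDKN1C and CDKN2B gave -0.62, 0.32, -0.62 and -0.25. Among all 9867 genes, 498 were higher and 472 lower in every clone than in every normal animal.

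**Figure D5:**
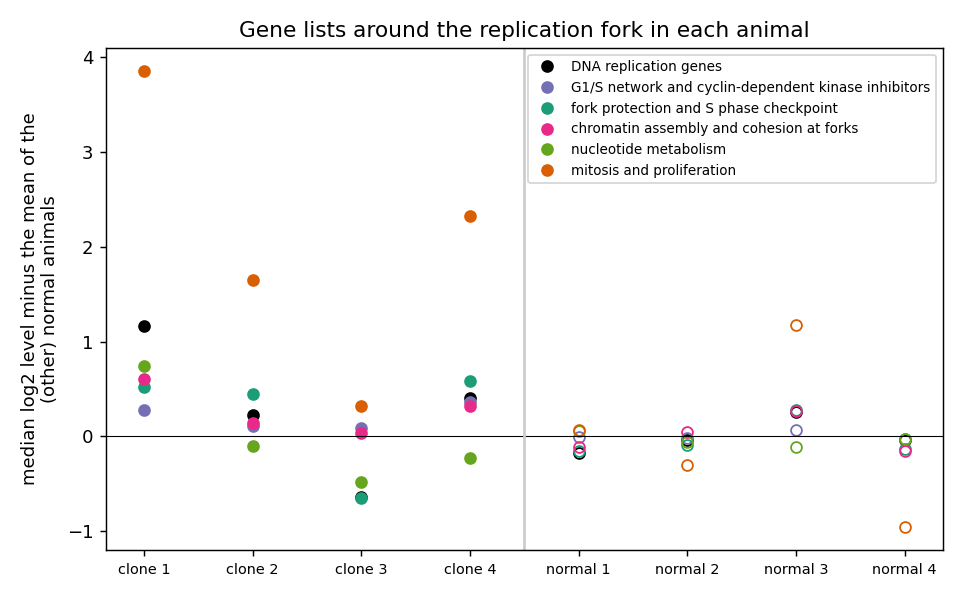
Median difference from the normal mean (log2) in each animal for the replication genes and the 5 related lists, clones left of normal animals. The mitosis list has the widest gaps (3.86 in clone 1, 0.32 in clone 3), and the replication genes follow the same order among clones with smaller ones.

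Markers of cell types were read in 10 lists, with 56 genes measured and 0 passing the test. Erythroid genes had positive differences for 7 of 7 measured (median 0.54), and their mean level was 1.04, -1.42, -0.51 and -0.91 in clones 1 to 4, against -0.92, -1.66, -0.30 and -1.20 in normal animals. Clone 1 and normal animal 3, the highest animal of each group for most replication genes, were also the highest of each group for the erythroid list. B and plasma cell markers had their highest mean level in clone 1 (-0.34, against -2.78 to -2.56 in the other clones and -2.68 to -1.68 in normal animals). Endothelial markers were lowest in clone 1 at 1.56 and highest in clone 3 at 3.89, against 3.02 to 3.32 in normal animals. Alveolar type II markers ran the other way, 5.80 in clone 1 and 4.55 in clone 3, against 4.94 to 5.06 in normal animals. Fibroblast markers had mean levels of 2.96 to 3.92 in clones and 2.69 to 3.20 in normal animals, and macrophage markers 1.75 to 3.82 in clones and 3.81 to 4.41 in normal animals. Ciliated cell markers had negative differences for 5 of 5 measured (median -0.86), with mean levels of -4.28, -2.91, -3.91 and -3.37 in clones 1 to 4, against -2.49, -2.61, -3.40 and -2.43 in normal animals. Clone 1 and normal animal 3 were thus the lowest of their groups for the ciliated list. Mean levels of alveolar type I markers were 2.28 to 3.13 in clones and 2.32 to 2.95 in normal animals, and those of neutrophil markers -2.36 to -0.75 in clones and -1.58 to -0.79 in normal animals. T and NK cell markers ranged from -0.82 in clone 1 to 0.06 in clone 3, against -0.07 to 0.74 in normal animals. The part of these cell types in the levels of the replication genes was not tested.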

How the data were processed

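Each of the 8 animals gave 1 Cy3 array of 43653 gene probes. Per the submitters' processing notes the scans were read with Agilent Feature Extraction 10.7, and the deposited scanner files hold each spot's processed intensity on a linear scale. The authors' value table, an alternative here, holds log2 values of the same arrays with a shared 75th percentile of 10.54; how it was made is not stated. Control spots and outlier spots (2 to 21 per array) were left out, and none was saturated. From each array's log2 intensity its 75th percentile was subtracted (10.10 to 10.49 in clones, 10.58 to 10.89 in normal animals).

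Probes were named by accession through RefSeq gene names (23492 probes; 14895 kept probes carried none). limma 3.58.1 in R 4.3.3 compared the groups, and the fit was tested on simulated data. Replicate numbers did not pair the animals (correlations of deviations -0.20 to 0.10). The number of arrays limits the precision. Normexp used the median spot signal, since the files used here hold no mean signal, and the planned search of promoters for motifs was not run. Every animal is printed for MCM3 to MCM7, PCNA and the gene of lowest p in each role; other genes printed by animal were chosen after their values were seen. The genes and lists were chosen with earlier results of these data known.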

Additional observations from a re-analysis of the deposited data

Results flagged for a closer look

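In 9 of 82 groups of 4 animals (41 genes, clones and normal animals), 1 animal's gap to its nearest neighbour, divided by the range of the group, exceeded Dixon's critical value at 95%. Chance gives about 1 in 20. Clone 1 was the animal for ORC1 (0.858) and POLD1 (0.837), on the high side in both. Clone 3 was the animal for ORC2 (0.873), CDC7 (0.916) and GMNN (0.837), on the low side in all 3. Among normal animals, normal animal 3 was high for ORC1 (0.893), RRM1 (0.943) and CCNE1 (0.854), and normal animal 1 was low for GINS4 (0.867).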

How the results depend on the processing

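The 4 clones differed widely among themselves, clones share 1 slide, and dim genes such as CDC6 have normal levels near background. No replication gene passed in the reported fit, with quantile or median centring, either normexp correction, no filter, a filter on all 8 arrays, the authors' log2 table, trend and robust settings, the replicate block, the mean of a gene's probes, or when 1 animal was left out. It was 1 with spike-in centring, 8 with array weights and 10 without clones 1 and 3 (added after seeing the data). The count of probes that passed, 63 in all, was 10132 with spike-in centring, 0 with normexp and the 75th percentile (2278 at an unadjusted p under 0.05), 25 with normexp and quantile, 17 with the filter on all 8 arrays, 146 with trend and robust settings, 11447 with array weights and 11331 without clones 1 and 3. Leaving out 1 animal gave 17 to 2562 probes, with 2562 without clone 1 and 451 without clone 3; without clones 2 and 4 it was 56 and 32, and without normal animals 1 to 4 it was 18, 23, 31 and 17. The pairing by number, as a replicate block, gave 13 probes and 0 replication genes (lowest adjusted p in limma 0.358). The median difference of the replication genes was -0.36 with spike-in centring and -0.083 (without clone 1) to 0.58 (without clone 3) with 1 animal left out.

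Spike-in centring as such left 8 of 41 genes positive. With that setting and normexp at the 75th percentile read relative to the median of all probes, 62 of 858 recomputed differences of single genes changed sign and 15 genes kept theirs throughout; the cause was not tested. With array weights these were MCM3 -0.19, ORC2 0.23, ORC3 0.29, ORC6 0.15, POLE2 -0.11, PRIM1 0.24, PRIM2 0.11, RPA3 -0.096 and TK1 -0.12. Without clones 1 and 3 they were MCM3 -0.28, ORC2 0.32, ORC3 0.37, ORC6 0.21, GINS1 -0.0090, POLE2 -0.19, PRIM1 0.33, PRIM2 0.14, RPA3 -0.12 and TK1 -0.16. With the mean of a gene's probes they were MCM7 -0.056, CDC7 -0.015, GMNN -0.016, RFC3 -0.10, GINS1 -0.031 and RPA2 -0.14. With normexp and the 75th percentile, relative to the median of all probes, they were MCM8 -0.15, ORC6 0.15, CDC6 -0.069 and PRIM2 0.18, and with normexp and quantile GINS4 0.0057 and PRIM1 0.063. With 1 animal left out the range was, among genes that turned without clone 1, MCM3 -0.41 to 0.54, MCM5 -0.18 to 1.08, MCM7 -0.23 to 0.58, MCM8 -0.073 to 0.66, CDC7 -0.11 to 0.53, CDC45 -0.085 to 0.75, GMNN -0.17 to 0.55, PCNA -0.083 to 0.66, RFC3 -0.22 to 0.34, RFC4 -0.17 to 0.72, GINS1 -0.15 to 0.39, GINS3 -0.15 to 0.27, POLE2 -0.23 to 0.35, FEN1 -0.25 to 0.88, RPA3 -0.27 to 0.25, RRM1 -0.14 to 0.63 and TK1 -0.081 to 0.61. Among those that turned without clone 3 it was ORC2 -0.92 to 0.18, ORC3 -1.07 to 0.11, ORC5 -1.18 to 0.24, ORC6 -0.39 to 0.35, PRIM1 -0.56 to 0.50 and PRIM2 -0.48 to 0.48.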
